A study of Homo sapiens with 2 samples.

Results

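The aminoacyl-tRNA synthetases examined here are encoded by 33 genes, taken by symbol from the RefSeq annotation of the human genome (GRCh38.p14, the build hg38) out of 19970 protein-coding genes. They were chosen by name and not by a cut on a measured value, but with earlier results of these data known. CAL27 cells, an established line of tongue squamous carcinoma, were profiled by ATAC-seq, an assay that marks open chromatin by where the Tn5 transposase can insert adapters. There were 2 libraries. The untreated group was 1 library of CAL27 cells with no treatment (18248413 tags), and the lactate group was 1 library of CAL27 cells given 10 mM lactate for 24 h (15401276 tags). Per the labels' protocols the cells were thawed from cryovials before nuclei were taken, and no genetic change was named in either group. With 1 library per group there is no replicate check, so each difference compares these libraries and not the conditions. Intervals are 95% and cover counting error only, not the spread between libraries. They take tags as independent molecules, which tags amplified by PCR are not.

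A synthetase joins an amino acid to the tRNA that decodes it. Most amino acids have a cytosolic enzyme and a separate mitochondrial enzyme, both encoded in the nucleus, while GARS1 and KARS1 serve both compartments. Several cytosolic enzymes sit together in the multisynthetase complex. The alanyl enzymes AARS1 and AARS2 have also been proposed to act as lactyltransferases, enzymes that use lactate to modify lysine, and many cytosolic synthetase genes are known targets of ATF4, the transcription factor of the amino acid response.

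Of the marker genes of squamous epithelium, KRT5, KRT8, KRT18, KRT17, CDH1 and ITGB4 had an accessible region at a start or gene end in both libraries, while TP63 and KRT14 had none in either. Of 6 markers of leukocytes, endothelium and fibroblasts, PTPRC, PECAM1 and CDH5 had none, PDGFRB had one in the lactate library alone, and CD3E (10 untreated and 21 lactate tags) and COL1A1 (54 and 67) had one in both. Their part in the results was not tested, and in bulk libraries a change in cell makeup and a change per cell cannot be told apart. In shared accessible regions lay summit tags equal to 16.4% of the untreated and 28.7% of the lactate tags, so ratios scaled to total tags were above 1 at most genes. Each ratio is therefore also read against all genes.

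The promoters of 6 synthetase genes carry TGATGCAA, the core of the composite element bound by ATF4 and C/EBP factors. The letters were searched on both strands in RefSeq promoters of 300 bases, 250 before and 50 from the start, which were available for 29 of the 33 genes (not for AARS2, LARS1, TARS3 and YARS1). The 60 bases around each match are shown because, of 9 motifs searched, this one was the most enriched among members relative to all promoters, read 5′ to 3′ on the strand of the gene, with the match in capitals. The coordinates (GRCh38.p14) are chr16:70289660-70289719 (minus strand) for AARS1, chr11:3057392-3057451 (minus) for CARS1, chr9:92293677-92293736 (minus) for IARS1, chr12:57488038-57488097 (plus) for MARS1, chr18:57621789-57621848 (minus) for NARS1 and chr5:33440941-33441000 (plus) for TARS1.
AARS1: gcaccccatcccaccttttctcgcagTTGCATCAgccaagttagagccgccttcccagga
CARS1: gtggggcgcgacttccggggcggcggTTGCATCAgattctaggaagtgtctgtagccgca
IARS1: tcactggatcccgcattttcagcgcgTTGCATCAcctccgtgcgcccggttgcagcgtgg
MARS1: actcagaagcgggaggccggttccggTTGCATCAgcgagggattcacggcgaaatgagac
NARS1: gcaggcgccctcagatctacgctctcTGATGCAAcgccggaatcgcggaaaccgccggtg
TARS1: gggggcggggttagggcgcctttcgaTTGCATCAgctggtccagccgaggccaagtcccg

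TGATGCAA was present in 6 of 29 synthetase promoters (20.7%) and in 143 of the 15811 promoter sets of all protein-coding genes (0.904%). The 6 were all genes of cytosolic enzymes, 6 of 14 with a promoter sequence, against 0 of 13 mitochondrial genes and 0 of the 2 genes that serve both compartments. In NARS1 the letters stood on the strand of the gene, and in the other 5 on the opposite strand, where they read TTGCATCA. Counting the start base as 0, the match began at position -187 in AARS1 and between -13 and 14 in the others, for TARS1 from the later of its listed starts. In all 6 genes it lay inside the accessible region, 62.5 to 130.5 bp from the lactate summit. A match of letters is a description and does not show that a factor was bound.

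Nearly all synthetase genes had accessible chromatin at the start in both libraries. A region within 1 kb of a listed start, or of either gene end for the 4 genes with no listed start, was found in both lists for 32 of 33 genes, against 61.6% of all protein-coding genes. The lactate list alone held a start region for IARS2 (5.36% of all genes fell in this class), and no synthetase gene lacked one in both lists, against 32.5% of all genes. The summit, the position in a region covered by most tags, lay within 150 bp of a listed start in the lactate library in 28 of 29 genes. The median summit lay 57 bp upstream of the start.

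Summit height is the number of tags over the summit per 1000000 total tags, a height at a point that does not grow with gene length. Over the 32 genes with a region shared by both lists, the heights ran from 0.603 (LARS2) to 6.69 (LARS1) in the untreated library, with a median of 2.33. In the lactate library they ran from 1.62 (LARS2) to 10.0 (LARS1), with a median of 4.87. The medians over 12227 protein-coding genes with a shared start region were 1.86 and 3.44. By the mean of both libraries, 23 of the 32 synthetase starts were taller than the median gene and 14 were in the tallest 25% of genes. LARS1 stood alone at the top, and LARS2, QARS1 and AARS2 were the lowest.

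**Figure D1:**
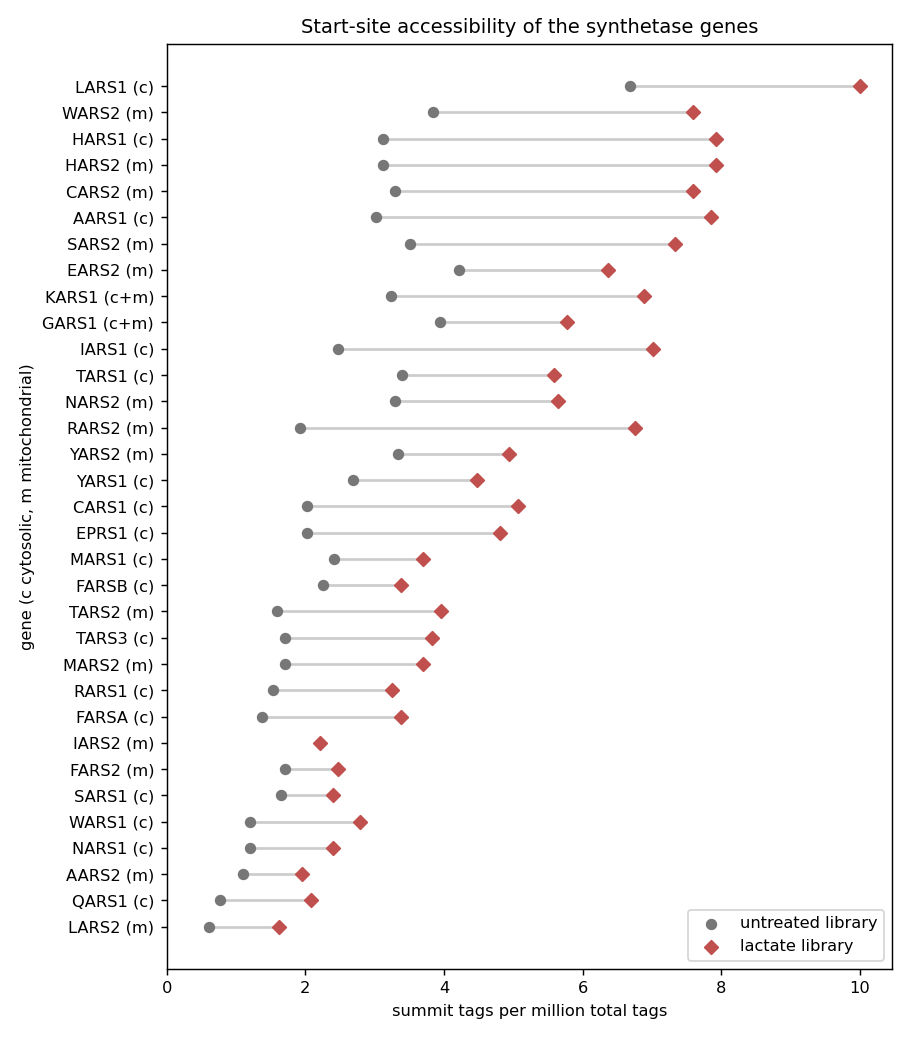
Summit height (tags per 1000000 total tags) at the start-site region of each synthetase gene, with grey circles for the untreated and red diamonds for the lactate library, 1 library each, ordered by mean height. LARS1 is tallest in both libraries (6.69 and 10.0), LARS2 is lowest (0.603 and 1.62), and IARS2 has a lactate value alone.

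By summit height, all 32 starts were higher in the lactate library, with ratios of 1.45 (FARS2) to 3.52 (RARS2) and a median of 2.12, but 11 of the 32 fell below 1 when tags were scaled to the summit tags of all shared regions. No member ratio was below 1, against 3.12% of all genes, and 18 of 32 were at least 2, against 39.4%. Scaling to summit tags brought the median of all genes from 1.84 to 1.05 and that of the synthetase genes to 1.21, and 43.6% of all genes were then below 1. The interval of the ratio before that scaling lay wholly above 1 at 28 of 32 genes, against 66.4% of all genes. That count depends on tag number, and synthetase starts had more tags. Their medians were 42.5 untreated and 75 lactate tags, against 34 and 53 over all genes. AARS2, FARSB, SARS1 and FARS2 had intervals that included 1.

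**Figure D2:**
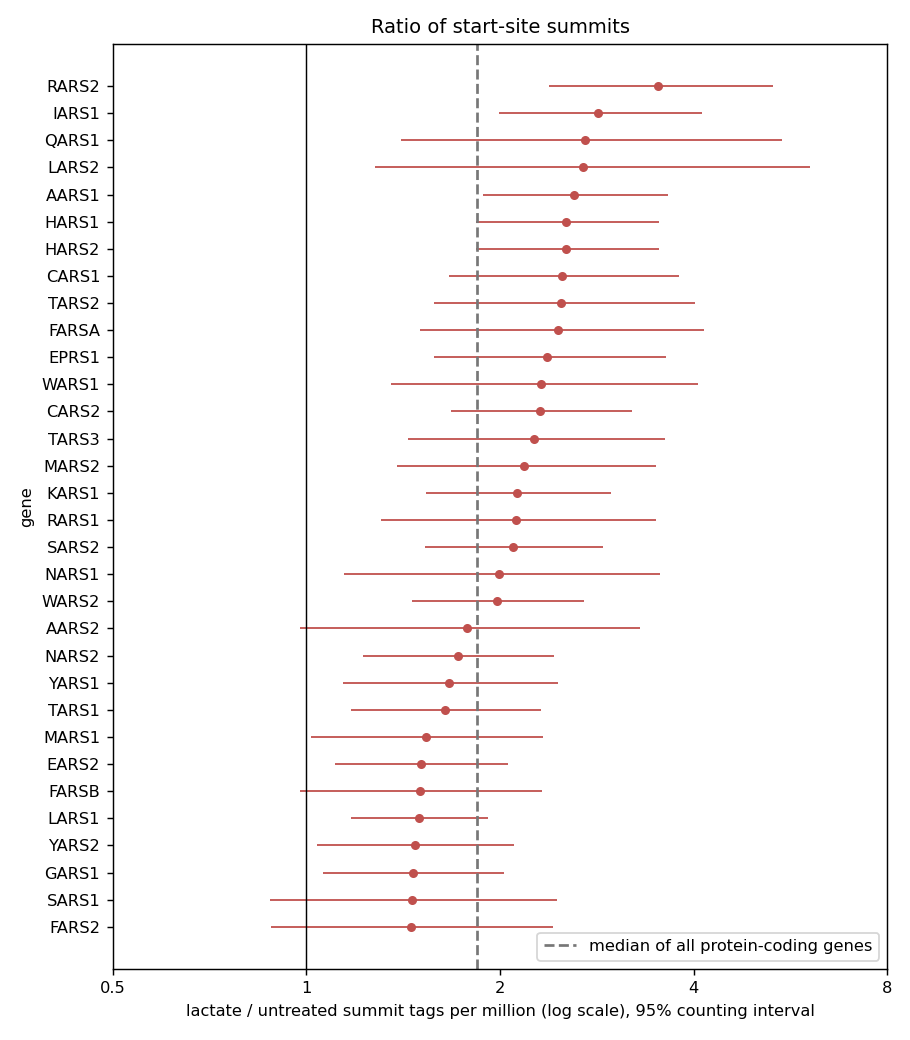
Ratio of lactate to untreated summit height at each start (log scale), with exact conditional Poisson intervals of 95% as bars and the median of all protein-coding genes (1.84) as a dashed line. All points lie right of 1 on this scaling, and 11 of the 32 fall below 1 on the scaling to summit tags of shared regions.

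Because the ratio grew with the height of a region in these libraries, from a median of 1.18 in the lowest to 2.00 in the highest of 20 bins, each ratio was also divided by the median of shared regions with equal summit tags. This relative ratio had a median of 1.15 over the synthetase genes (range 0.749 to 1.81) and 1.01 over all genes. It was below 1 at 12 of 32 genes, 37.5%, against 47.2% of all genes. RARS2, LARS2 and QARS1 reached 1.5 or more, 3 of 32 against 9.68% of all genes, and 0 of 32 were at or below 0.667, against 7.46%. The interval of the relative ratio lay wholly above 1 at RARS2 and IARS1 (6.6% of all genes) and wholly below 1 at LARS1 (6.28%). The counts of members at 1.5 or more and with an interval above 1 are near these background shares.

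**Figure D3:**
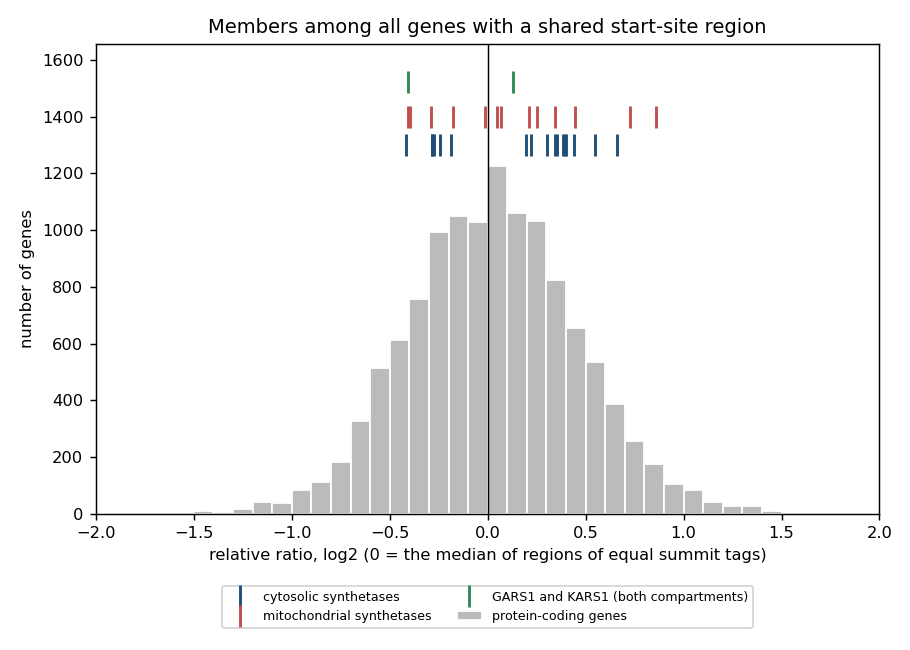
Number of protein-coding genes (grey bars) by the log2 of the relative ratio at the start site, with a tick for each synthetase gene in blue (cytosolic), red (mitochondrial) or green (both compartments). Of the 32 ticks, 20 lie above and 12 below 0.

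AARS1, the cytosolic alanyl-tRNA synthetase, had 55 untreated and 121 lactate tags at its start summit (chromosome 16, 70289111 to 70289771), or heights of 3.01 and 7.86. By height it was at rank 13 of the 32 starts in the untreated list and at rank 4 of the 33 in the lactate list. The ratio was 2.61 (1.88 to 3.65) and the relative ratio 1.3 (0.941 to 1.83), while scaling to summit tags of shared regions gave 1.49 (1.07 to 2.09). The RefSeq promoter of AARS1 on the minus strand (chr16:70289457-70289756) is shown with matches to TGATGCAA, GGGCGG and CCAAT on either strand in capitals.
AARS1: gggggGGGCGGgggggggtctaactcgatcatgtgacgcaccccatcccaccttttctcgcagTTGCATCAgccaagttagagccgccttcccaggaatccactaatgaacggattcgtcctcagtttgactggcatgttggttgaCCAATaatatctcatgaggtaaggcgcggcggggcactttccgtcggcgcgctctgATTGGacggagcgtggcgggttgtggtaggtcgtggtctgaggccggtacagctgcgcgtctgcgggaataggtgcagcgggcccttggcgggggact

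AARS2, the mitochondrial alanyl-tRNA synthetase, was much lower. Its tallest end region (upper-coordinate end, chromosome 6, 44313179 to 44313536) had 20 untreated and 30 lactate tags, or heights of 1.10 and 1.95. The ratio was 1.78 (0.976 to 3.30) and the relative ratio 1.03 (0.568 to 1.92), while scaling to summit tags of shared regions gave 1.02 (0.558 to 1.89). A second shared region inside the gene (44309092 to 44309488) had 18 and 48 tags, with a ratio of 3.16 and a relative ratio of 1.78. The lower-coordinate end had 11 tags in the lactate list alone. The intervals of AARS1 and AARS2 overlapped.

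HARS1 and HARS2, the cytosolic and mitochondrial histidyl-tRNA synthetases, lie head to head and share a region, so their values are 1 measurement. The gene counts and the medians of height and ratio at starts nevertheless include it under each gene. Entering it 1 time gave a median ratio of 2.12 and a median relative ratio of 1.15, a setting chosen after seeing the data. The region (chromosome 5, 140690604 to 140691963) had 57 untreated and 122 lactate tags, or heights of 3.12 and 7.92. Its ratio was 2.54 (1.84 to 3.54) and its relative ratio 1.27 (0.919 to 1.77). The starts are at 140691370 for HARS1 on the minus strand and 140691455 for HARS2 on the plus strand. The sequence below (chr5:140691205-140691504, plus strand, GRCh38.p14) shows how close they are, with the 84 bases between the starts in capitals. CCGGAAGT, the core letters bound by ETS factors, occurs 2 times in this stretch, once on each strand, close to either start.
HARS1 and HARS2: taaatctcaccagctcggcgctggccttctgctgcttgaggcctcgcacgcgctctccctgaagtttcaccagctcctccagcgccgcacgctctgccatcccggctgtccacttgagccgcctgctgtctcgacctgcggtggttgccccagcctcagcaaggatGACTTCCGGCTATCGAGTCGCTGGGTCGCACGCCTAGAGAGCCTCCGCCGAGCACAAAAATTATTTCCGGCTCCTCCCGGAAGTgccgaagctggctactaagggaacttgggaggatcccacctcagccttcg

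Of the cytosolic enzymes in the multisynthetase complex, together with KARS1, 7 genes were measured. LARS1, the leucyl enzyme, had 122 untreated and 154 lactate tags at its upper-coordinate end (chromosome 5, 146182261 to 146183246), or heights of 6.69 and 10.0. Its ratio of 1.5 (1.17 to 1.91) gave the lowest relative ratio of all, 0.749 (0.586 to 0.957). IARS1, the isoleucyl enzyme, had 45 and 108 tags (chromosome 9, 92293509 to 92294443), or heights of 2.47 and 7.01, and a relative ratio of 1.46 (1.02 to 2.12). QARS1, the glutaminyl enzyme, had 14 and 32 tags (chromosome 3, 49104478 to 49105253), or heights of 0.767 and 2.08, and a relative ratio of 1.58 (0.821 to 3.21). The complex thus held both ends of the cytosolic range. EPRS1, which charges glutamate and proline, had 37 and 74 tags and a relative ratio of 1.28. RARS1, the arginyl enzyme, had 28 and 50 tags and 1.17. MARS1, the methionyl enzyme, had 44 and 57 tags and 0.828. The median relative ratio was 1.17 over the 7 complex genes and 1.23 over the 11 cytosolic genes outside the complex.

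Outside the complex, the relative ratios of the cytosolic genes ran from 0.822 to 1.36. CARS1, the cysteinyl enzyme, had 37 untreated and 78 lactate tags and a relative ratio of 1.31. FARSA and FARSB encode the subunits of the phenylalanyl enzyme. FARSA had 25 and 52 tags with a relative ratio of 1.36, while FARSB had 41 and 52 tags with 0.822. The intervals of these subunit genes, 0.828 to 2.28 and 0.535 to 1.27, overlapped. WARS1, the tryptophanyl enzyme, had 22 and 43 tags (1.32), and NARS1, the asparaginyl enzyme, had 22 and 37 (1.15). TARS1, the threonyl enzyme, had 62 and 86 tags (0.845), and its paralog TARS3 had 31 and 59 (1.23). SARS1, the seryl enzyme, had 30 and 37 tags (0.822), and YARS1, the tyrosyl enzyme, had 49 and 69 (0.878). TARS1 was the tallest of these in the untreated library, with a height of 3.40.

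The intervals of the genes that serve both compartments overlapped. GARS1, the glycyl enzyme, had 72 untreated and 89 lactate tags (chromosome 7, 30594111 to 30595439), or heights of 3.95 and 5.78, with a relative ratio of 0.753 (0.546 to 1.04). KARS1, the lysyl enzyme, had 59 and 106 tags, or heights of 3.23 and 6.88, with a relative ratio of 1.10 (0.789 to 1.53). GARS1 was thus the taller in the untreated library and KARS1 in the lactate library.

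Among the mitochondrial enzymes, RARS2, the arginyl enzyme, had the largest ratio of all members. Its start region (chromosome 6, 87589685 to 87590432) had 35 untreated and 104 lactate tags, or heights of 1.92 and 6.75. The ratio was 3.52 (2.38 to 5.32), the relative ratio 1.81 (1.22 to 2.74) and the ratio scaled to summit tags of shared regions 2.01 (1.36 to 3.04). The region also holds the start of ORC3, an origin recognition subunit, so the value belongs to both genes. Its promoter on the minus strand (chr6:87589938-87590237, GRCh38.p14) is shown because this gene had the largest relative ratio of the members. It has single matches to CCAAT and GGGCGG, in capitals on either strand, and none to TGATGCAA.
RARS2: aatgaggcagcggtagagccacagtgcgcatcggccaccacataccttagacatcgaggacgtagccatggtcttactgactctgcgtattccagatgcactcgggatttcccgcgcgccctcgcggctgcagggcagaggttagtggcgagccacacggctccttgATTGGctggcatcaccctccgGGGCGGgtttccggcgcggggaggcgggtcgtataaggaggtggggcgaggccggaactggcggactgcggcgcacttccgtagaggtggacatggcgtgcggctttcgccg

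IARS2, the mitochondrial isoleucyl enzyme, had a start region in the lactate list alone (chromosome 1, 220093878 to 220094660), with 34 tags, a height of 2.21, and a fold enrichment over local background of 6.73, the authors' value. An untreated height was not listed, so no ratio was formed. Among 1526 genes with 30 to 38 lactate tags at the start, 84 (5.50%) were likewise in the lactate list alone. The genes of that height with a shared region had a median of 23 untreated tags. The IARS2 promoter on the plus strand (chr1:220093882-220094181, GRCh38.p14) holds several matches to GGGCGG and 1 to CCAAT, in capitals on either strand.
IARS2: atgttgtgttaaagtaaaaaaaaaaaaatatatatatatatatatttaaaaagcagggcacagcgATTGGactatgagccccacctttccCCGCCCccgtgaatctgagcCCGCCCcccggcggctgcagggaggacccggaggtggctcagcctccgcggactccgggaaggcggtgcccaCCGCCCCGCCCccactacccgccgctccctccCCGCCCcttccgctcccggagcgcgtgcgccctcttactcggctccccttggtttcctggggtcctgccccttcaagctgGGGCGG

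The other mitochondrial genes spanned most of the range. LARS2, the leucyl enzyme, had the lowest start of all, with 11 untreated and 25 lactate tags (chromosome 3, 45388127 to 45388909), or heights of 0.603 and 1.62. Its relative ratio of 1.65 had a wide interval, 0.785 to 3.72. TARS2, the threonyl enzyme, had 29 and 61 tags (chromosome 1, 150487170 to 150487557) and a relative ratio of 1.36 (0.863 to 2.2). At the other end stood EARS2, the glutamyl enzyme, with 77 and 98 tags (chromosome 16, 23557009 to 23558039) and 0.755 (0.554 to 1.03). YARS2, the tyrosyl enzyme, had 61 and 76 tags (chromosome 12, 32754947 to 32756122) and 0.759 (0.535 to 1.08), and FARS2, the phenylalanyl enzyme, had 31 and 38 tags (chromosome 6, 5260112 to 5261648) and 0.817 (0.495 to 1.36). WARS2, the tryptophanyl enzyme, was the second tallest start of all by mean height, with 70 and 117 tags, heights of 3.84 and 7.60, and a relative ratio of 0.991. CARS2, SARS2, NARS2 and MARS2, the cysteinyl, seryl, asparaginyl and methionyl enzymes, had relative ratios of 1.16, 1.05, 0.884 and 1.19.

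The ranges of cytosolic and mitochondrial genes overlapped. The median heights were 2.03 untreated and 3.83 lactate over 17 cytosolic genes, and 3.12 and 5.65 over 13 mitochondrial genes with a shared region. The median relative ratios were 1.23 and 1.05, with ranges of 0.749 to 1.58 and 0.755 to 1.81. Of 14 pairs of enzymes for the same amino acid, 13 had values for both genes. The mitochondrial gene was the taller in 7 pairs and the cytosolic gene in 5, while the HARS1 and HARS2 pair shares its value. The ratio was higher for the cytosolic gene in 7 pairs and for the mitochondrial gene in 5.

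Start regions of 9 of the 32 genes (28.1%) also held the listed start of another protein-coding gene, against 17.5% over all genes with a shared start region. The neighbours were UBFD1 at EARS2, LYRM4 at FARS2, S100PBP at YARS1, MRPS12 (a mitochondrial ribosomal protein) at SARS2, TERF2IP (a telomere protein) at KARS1, WDR25 at WARS1 and ORC3 at RARS2, besides HARS1 and HARS2. Tags at such a region cannot be assigned to either gene. The median untreated height was 3.12 in these 9 and 2.03 in the other 23, and the median relative ratios were 1.10 and 1.16.

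Within the genes and up to 1 kb beyond their ends, the untreated list held 98 regions and the lactate list 110, which merged into 119. Of these, 83 were in both lists, 23 in the lactate list only and 13 in the untreated list only. In the lactate list 20.9% of the regions at these genes (exact binomial interval 13.7 to 29.7) had no overlap with an untreated region, against 26.2% at all protein-coding genes. In the untreated list the share was 13.3% (7.26 to 21.6), against 9.35%. Both intervals include the value of all genes. They take regions as independent, which regions of the same gene are not, and FARS2 alone holds 24 of the 119. With lists of equal length by fold enrichment the order turned, with 12 lactate-only and 19 untreated-only regions among 91 lactate and 98 untreated regions. That cut shortens the lactate list alone, so lactate-only counts can only fall and untreated-only counts can only rise. No share over all genes is given for it. Just 1 region was found at each of 10 genes, among them LARS1, EPRS1 and RARS2.

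**Figure D4:**
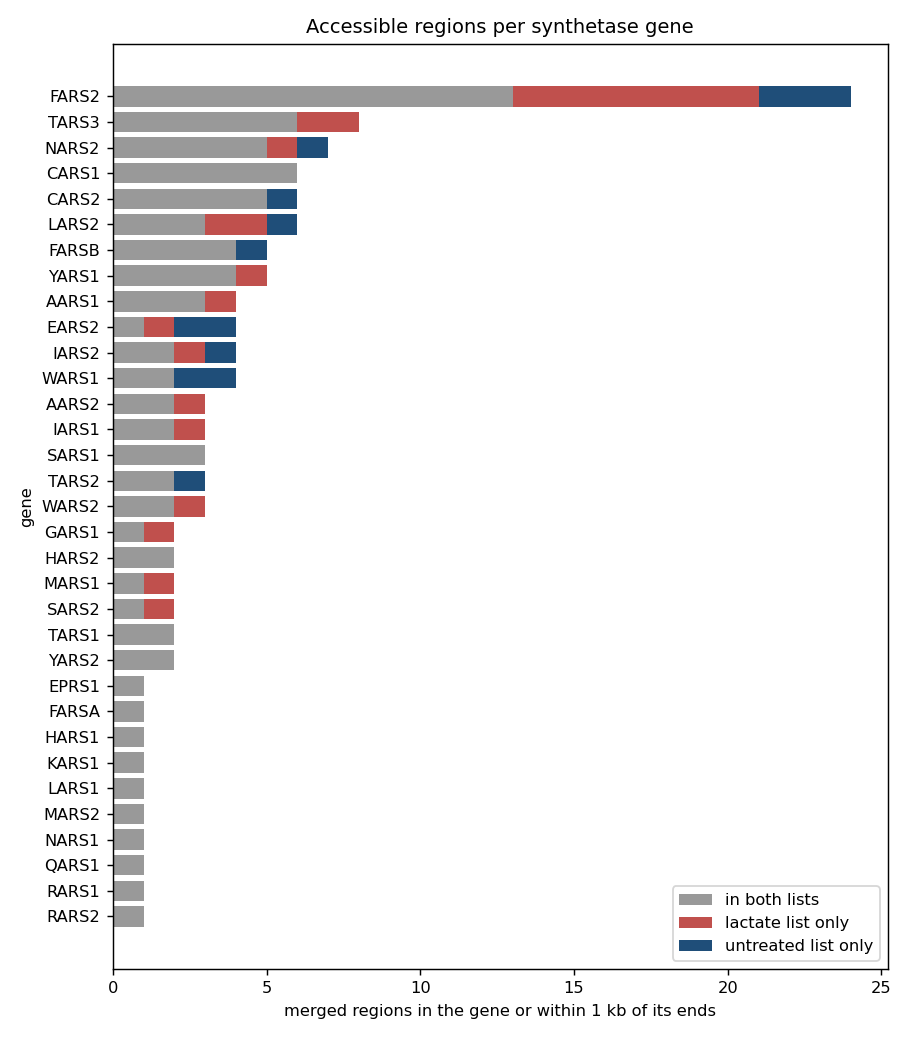
Merged accessible regions in each synthetase gene or within 1 kb of its ends, split into those in both lists (grey), in the lactate list only (red) and in the untreated list only (blue). FARS2 holds 24 of the 119 regions, and 10 genes hold 1 each.

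FARS2, by far the longest gene of the group at 522 kb, held 24 merged regions, 13 shared, 8 in the lactate list only and 3 in the untreated list only. Per 100 kb that is 4.60 regions, fewer than in TARS3 (11.3) or CARS1 (10.6). The tallest region of 1 list alone among all members lay there, with 38 lactate tags and a fold of 9.80 (chromosome 6, 5671145 to 5671505). It lies between shared regions at 5670401 to 5671030 (18 untreated and 15 lactate tags) and 5672621 to 5672915 (24 and 38). A shared FARS2 region at 5303096 to 5303622 had 16 and 43 tags, a ratio of 3.18. Another, at 5287686 to 5288025, had 26 and 20, a ratio of 0.911.

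Besides the IARS2 start (fold 6.73), other regions in the lactate list only with a fold of 5 or more lay in TARS3 (chromosome 15, 101664393 to 101664627, 15 tags, fold 8.03), LARS2 (10 tags, 5.50), SARS2 (16 tags, 5.38), WARS2 (13 tags, 5.30) and MARS1 (chromosome 12, 57510010 to 57510326, 28 tags, 5.27). FARS2 had 3 more, with folds of 6.02, 5.02 and 5.02. In the untreated list only, EARS2 (chromosome 16, 23538645 to 23538952, 19 tags, fold 6.45) and TARS2 (10 tags, fold 5.05) had such regions. The EARS2 region lay next to a lactate-only region (23539088 to 23539537, 6 tags, fold 3.40). The WARS2 region was narrow and lay next to a shared one (119080538 to 119081013, 18 untreated and 31 lactate tags). Most regions of 1 list were low, with a median of 10 tags in either list.

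Away from starts, 32 shared regions at synthetase genes, narrow ones left out, had a median ratio of 2.02 and a median relative ratio of 1.18, against 1.64 and 1 over 29073 such regions at all genes. The relative ratio was below 1 at 8 of the 32 (25.0%), against 49.0%. Of these 32 regions, 5 (15.6%) had a ratio below 1, against 11.2% of such regions at all genes. The lowest was in IARS1 (13 untreated and 7 lactate tags, ratio 0.638). Of those inside a gene, 9 lie in FARS2 and 4 each in CARS1 and TARS3, so the 32 regions are not independent of each other.

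The relative ratios of the 6 genes with TGATGCAA lay on both sides of 1. They were 1.46 (IARS1), 1.31 (CARS1), 1.3 (AARS1), 1.15 (NARS1), 0.845 (TARS1) and 0.828 (MARS1), with a median of 1.23. Only the interval of IARS1 excluded 1, so no direction is shown for the others. The median was 1.16 over the 22 synthetase genes with a promoter sequence, no match and a shared region. Among genes that are not synthetases, it was 1.04 over 70 genes with the match and 1.01 over 9913 without.

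The other motifs were counted in the same way. The looser form TGATGNAAN, whose 8 members include all 6 of the stricter one, was in 8 of 29 synthetase promoters (27.6%) and 3.60% of all, adding GARS1 and YARS2. CCGGAAGT (ETS) was in 7 (24.1% against 6.98%), AAGATGGCG (YY1) in 5 (17.2% against 3.21%), GGGCGG (SP1) in 22 (75.9% against 64.3%) and CCAAT (NFY) in 15 (51.7% against 42.1%). CACGTG (E-box) was in 4 (13.8% against 10.9%), TATAAA, the core of a TATA box, in 2 (6.90% against 12.4%) and GCGCATGCG (NRF1) in 1, MARS2 (3.45% against 3.11%). HARS1 and HARS2 share their ETS matches. GC content was taken as the highest among the listed promoters of a gene. Its median was 62.3% over synthetase genes, against 64.7% over all genes with a listed start.

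Genes that work beside the synthetases were open at the start in most cases. Of the scaffold genes of the multisynthetase complex, AIMP2 had 124 untreated and 206 lactate tags, or heights of 6.80 and 13.4, and a relative ratio of 0.985. AIMP1 had 1.21 and EEF1E1 0.904. Mitochondria have no glutaminyl enzyme and convert glutamate on the tRNA with the amidotransferase of GATB, GATC and QRSL1, whose relative ratios were 1.40, 0.765 and 1.08. MTFMT, the formyltransferase of the initiator tRNA, was open in the untreated list alone, with 20 tags at a gene end.

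Of 8 elongation factor genes, 7 had a shared region, with a median relative ratio of 0.877, and 5 of the 7 were below 1. EEF1D stood highest (45 and 109 tags, 1.48) and EEF1G lowest (54 and 62 tags, 0.716), while EEF2 had a start region in the lactate list alone. Of 15 genes of the amino acid response, 14 had a shared region, with a median relative ratio of 0.985, and 7 of the 14 were below 1. ATF4 itself had 60 and 91 tags and 0.924. The asparagine synthetase gene ASNS had 48 and 101 tags and 1.28, the cystine transporter gene SLC7A11 23 and 58 tags and 1.65, and the serine synthesis gene PHGDH 51 and 55 tags and 0.689. ATF3 had no region at its start in either list.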

How the data were processed

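ATAC-seq peak lists of CAL27 cells, 1 untreated and 1 lactate library grouped by the treatment label, were analysed. The authors called each library's peaks on its own, per the file headers, with MACS 2.2.7.1 (no control, q threshold 0.05, no model, shift of 100 bp upstream, extension of 200 bp, duplicates kept, summits called) from alignments named as uniquely mapped and deduplicated. Read trimming and alignment tools listed are BWA 0.7.12 and fastp 0.20.0, with hg38 and another caller version, MACS2 2.1.0, per the submitters' processing notes. The deposited pileup is a signal, the extended tags over a summit, unscaled. The deposited fold enrichment is the ratio of pileup to local background, each peak's own value. The deposited start, end, width and summit position are in base pairs.

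Summits of a region were counted once, with the highest pileup (chromosomes 1 to 22 and X). Overlapping regions of the 2 lists (at least 1 bp) were merged. Ratios are lactate over untreated summit tags per 1000000 total tags, with exact conditional Poisson intervals. Relative ratios divide by a bin median, from 73525 shared regions cut into 20 bins by summit tags. Narrow single-summit regions, 218 to 225 bp wide, were left out of the bins. Starts came from RefSeq promoters, listed for 15811 of 19970 genes, and otherwise both gene ends were used. Exons were not told from introns. Python 3.11.15, scipy 1.17.1 and bedtools 2.31.1 were used, and ratio and overlap code was tested on simulated data. No test was possible with 1 library per group. Alternatives (window, fold minimum, list length, overlap, summit choice, scaling, bins) are in the closing section.

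The members and lists were chosen with earlier results of these data known. Named genes are AARS1, AARS2, HARS1 and HARS2, members not open in both lists, the 5 highest and 5 lowest by relative ratio, the 3 tallest and 3 lowest starts, members with a region of 1 list at a fold of 5 or more, and those sharing a region with another start. The others appear with their counts.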

Additional observations from a re-analysis of the deposited data

How the results depend on the processing

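No paired analysis was possible because a group is a single library. Of 76 alternative values, 70 stayed within the counting interval or 1.5 times the reported count, and 6 moved. Some of the 70 could not move by construction. Among these are the relative ratio under scaling, the region totals under the overlap rule, and the untreated total under equal list lengths. The AARS1 ratio is another under summit choice and summing, as its start has a single region with a single summit. Scaling to the summit tags of all shared regions gave a median ratio of 1.21 in place of 2.12 and a ratio of 1.49 at AARS1 in place of 2.61. Summing all summits of a region gave a median ratio of 1.88. With a fold enrichment of at least 4 in both lists, 2 genes had a start region in the lactate list alone, FARSA besides IARS2, and untreated-only regions numbered 7 in place of 13. With lists of equal length by fold enrichment, lactate-only regions numbered 12 in place of 23 and untreated-only regions 19 in place of 13, so the order of the lists turned. As that cut shortens the lactate list alone, these counts could move in no other direction. The AARS2 ratio fell from 1.78 to 1.02 when scaled to shared regions, within its counting interval. Using only members with a listed start, or counting HARS1 and HARS2 once, was chosen after seeing the data and gave a median relative ratio of 1.16 and 1.15. Depth limits single genes: the ratio interval ran from 1.28 to 6.06 at LARS2, the lowest start, and from 1.17 to 1.91 at LARS1, the tallest.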

Other observations

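In FARSB, FARS2, IARS2 and NARS2 the tallest region was not at the start but was a narrow region with a single summit, 218 to 225 bp wide. FARSB held 3 narrow regions, with 195 untreated and 391 lactate tags (chromosome 2, 222632460 to 222632681), with 130 and 244 tags (222608103 to 222608321) and with 42 and 32 tags (222610396 to 222610620, ratio 0.903), against 41 and 52 at its start. The tallest 3 of the 6 narrow FARS2 regions had 100 and 177, 85 and 69, and 83 and 88 tags, against 31 and 38 at its start. IARS2 held one with 82 and 139 tags (chromosome 1, 220106110 to 220106328), present in both lists, while its start was listed in the lactate library alone. In all, 17 of the 119 merged regions at synthetase genes were of this kind. By list, narrow regions made up 13.3% of untreated and 17.3% of lactate regions at these genes. The shares at all protein-coding genes were near these, 14.0% and 13.2%. How many of all genes have a narrow region as their tallest was not counted. What the narrow regions are was not tested. The tallest regions of CARS1 (1119 bp wide, 50 and 94 tags) and CARS2 (1192 bp wide, 89 and 148 tags, at the start of ING1) were also away from the start regions used here and were not narrow, nor was that of AARS2 described above.

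SARS1 had a second shared region next to its start (chromosome 1, 109214849 to 109215144) with 27 untreated and 22 lactate tags, a ratio of 0.965, while its start region had 30 and 37. The lower-coordinate end of AARS1 held a shared region with the start of EXOSC6, an exosome subunit (chromosome 16, 70251042 to 70252912), with 72 and 88 tags and a relative ratio of 0.745, against 1.3 at the AARS1 start. At the upper-coordinate end of TARS2, a shared region with the start of ECM1, an extracellular matrix protein, had 17 and 43 tags and a relative ratio of 1.71.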
